A study of Homo sapiens with 9 samples.

Results

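The histone genes are described here, in MDA-MB-231 cells that overexpress the nuclear receptor TLX, with and without an siRNA against it. The members are the rows of the deposited log2 CPM table (CPM, counts scaled to library size, here on a log2 scale) whose symbol begins with a core or linker histone name. These were H1-, H2AC, H2BC, H3C, H4C, H2AZ, H3-3 and the older forms of those names, with 1 row kept per symbol. The rule matched 73 rows and 72 symbols, so there were 72 genes among 27548 rows and 25245 symbols. The 71 described here were 52 replication-dependent genes, 5 variant genes, 11 pseudogenes and 3 genes of the testis or germ line (H2BC1, H1-6 and H1-7). H4C11 was counted, although it sat at the lowest value of the table in every library to 2 decimals.

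Histones are the proteins that DNA is wound around. Replication-dependent histone genes lie in clusters, are transcribed mainly in S phase, and their messages as a rule end in a stem-loop in place of a poly(A) tail, which the stem-loop binding protein SLBP recognises. Variant, or replacement, histones are made throughout the cell cycle from single genes with introns or ordinary poly(A) ends, and take particular places in chromatin: H2A.Z at promoters, the replacement H3 at active genes, and the linker histone encoded by H1-10 on DNA between nucleosomes. A library made from poly(A)-selected mRNA therefore holds few of the usual stem-loop messages.

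The RNA came from MDA-MB-231, an established line of triple-negative breast cancer, with 3 groups and 3 libraries in each. MDA-MB-231 cells overexpressing TLX received TLX siRNA in one group (TLX+siTLX, libraries S7 to S9) and a negative control siRNA in another (TLX+siCTL, S4 to S6). Control MDA-MB-231 cells received the negative control siRNA (CTL+siCTL, S1 to S3). DharmaFECT 4 was the transfection reagent for every group, over 48 h, and the mRNA kit (TruSeq) kept strand. Control sample titles include PC3 without any explanation in the labels. The sources used here do not give the means of TLX overexpression, whether the line is 1 clone, or the siRNA sequences. Nor do the labels call the 3 libraries of a group separate cultures, so p-values measure a spread between samples that may be technical. In bulk RNA, a change in the share of cells in S phase and a change in histone message per cell cannot be told apart.

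The stem-loop letters of 6 replication-dependent genes are printed first, because the end of the message decides what a poly(A) library can hold. They were read from GENCODE 29 transcripts on GRCh38, 5′ to 3′ on the gene's strand, and the capitals mark both arms of the stem. H2AC6, H4C9 and H2BC5 were among the 5 most abundant genes of the class, H4C8 had one of the larger rises, and H2BC4 and H2BC15 moved in opposite directions after the siRNA.
H2AC6: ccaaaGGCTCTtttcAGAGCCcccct
H4C9: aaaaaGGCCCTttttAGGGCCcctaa
H2BC5: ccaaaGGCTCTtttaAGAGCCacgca
H4C8: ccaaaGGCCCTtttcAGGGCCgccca
H2BC4: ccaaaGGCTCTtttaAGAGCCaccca
H2BC15: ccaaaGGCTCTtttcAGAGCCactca
These sites lie at chr6:26124664-26124689 (plus strand, H2AC6), chr6:27139649-27139674 (plus, H4C9), chr6:26158582-26158607 (plus, H2BC5), chr6:26285126-26285151 (minus, H4C8), chr6:26123467-26123492 (minus, H2BC4) and chr6:27839085-27839110 (plus, H2BC15). The 3 H2B genes and H2AC6 share the left arm GGCTCT and the right arm AGAGCC, and the H4 genes have GGCCCT and AGGGCC. The letters searched, a left arm GGCNCT, a loop TNTN and a right arm AGNGCC in 1 run on the transcript's strand, were present in transcripts of 42 of 19922 protein-coding genes (0.211%). In all 6 genes at least 1 annotated transcript with these letters runs on past the stem-loop. The longest such run was 1128 bases in H2AC6, 212 in H4C9, 39 in H2BC5, 1655 in H4C8, 116 in H2BC4 and 377 in H2BC15.

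Library sizes were inferred from the steps between low values, with a prior count of 2 reads assumed to be added to each count. They were 73.8 to 91.8 M reads. The limit that a count of 0 allows, 3 reads, was then 0.0327 to 0.0406 CPM. Such limits cover counting error only. The targeted gene, NR2E1, which encodes TLX, had log2 CPM of -2.61, -3.40 and -1.77 in TLX+siTLX, 0.28, -0.84 and 0.23 in TLX+siCTL, and -4.59, -4.28 and -4.50 in CTL+siCTL. The 3 groups did not overlap, and the order was that of the labels. Of 6 markers of MDA-MB-231, 5 averaged at least 1 on the log2 CPM scale in every group, with VIM at 10.0 to 10.82 and CD44 at 9.44 to 10.3. SPARC was near 0 at -4.90 to -2.09. The summed CPM of those 6 genes was 4610 to 4870 in TLX+siTLX, 3380 to 3430 in TLX+siCTL and 3760 to 3850 in CTL+siCTL. Of 6 genes taken as low or absent in this line, GATA3 and EPCAM averaged at least 1 in each group. CDH1, from the same list, ranged from 1.14 to 1.68 in TLX+siTLX, -1.22 to -0.84 in TLX+siCTL and 1.65 to 2.65 in CTL+siCTL. For CDH1 the log2 fold change was -3.03 in TLX+siCTL against CTL+siCTL and 2.41 in TLX+siTLX against TLX+siCTL. That list summed to 41.3 to 42.9 CPM in TLX+siTLX, 27.5 to 28.2 in TLX+siCTL and 22.7 to 29.6 in CTL+siCTL. Of the prostate genes looked at, SLC45A3 was above 1 and KLK2, KLK3 and HOXB13 were at or near 0.

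The 5 variant genes were among the abundant messages and most replication-dependent genes were not. All 5 averaged at least 1 on the log2 CPM scale, with a median level of 7.14 and a range of 6.61 (H3-3A) to 8.12 (H3-3B). Of the 52 replication-dependent genes, 12 averaged at least 1, 12 lay between -3 and 1 and 28 were under -3, with a median level of -3.60. The highest of them was H2AC6 at 5.40. Pseudogenes had a median of -5.10 and the 3 testis or germ line genes were all under -5. In the libraries, 11 to 20 of the 52 replication-dependent genes were listed at the lowest value.

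Levels were also divided by the kilobases of the longest GENCODE transcript, a rough scale for comparing genes. Values are too low where a shorter transcript is the one expressed. On this scale H3-3B stood at 100, H1-10 at 98.7 and H2AZ1 at 76.0 CPM per kb. H3-3A and H2AZ2 stood at 52.7 and 35.7 CPM per kb. Among replication-dependent genes, H2BC12 reached 101 and H1-2 reached 47.8 CPM per kb, but their annotated models, of 381 and 642 bases, hold the coding part alone and make these values too high for a longer message. H2AC6 followed at 25.8, H2BC5 at 20.2 and H4C9 at 13.7 CPM per kb. H2AC19, at 7.47, and H2BC4, at 5.11, came next, and the other genes averaging at least 1 stood at 1.98 or less.

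Level and annotated end went together within the replication-dependent class, as a description across 50 annotated genes. The 17 genes with a stem-loop and a transcript that runs on by at least 100 bases had a median log2 CPM of 0.54, and 8 of them averaged at least 1. The 7 genes whose transcripts with the stem-loop all end within 100 bases of it had a median of -2.85, and 2 averaged at least 1. Transcripts without the stem-loop letters were not measured. The stem-loop of H2BC5, 1 of those 2 genes, lies in a transcript of 496 bases, while its longest transcript has 789. The 26 genes without those letters in any transcript had a median of -4.72, and the 2 that averaged at least 1 were H2BC12 and H1-2, whose models stop at the coding part. Others of the 26 have models as short, such as H2BC17 at 381 bases, H2AC20 at 390 and H4C12 at 312. A model that stops at the coding part cannot show the letters, so their absence there does not mean a message without a stem-loop. H3C2 and H3C3 were absent from that annotation. Per kilobase the medians were 0.57, 0.244 and 0.0464 CPM per kb in the same order. Transcripts in an annotation are drawn partly from poly(A) RNA, so the end and the level are not independent measures.

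**Figure D1:**
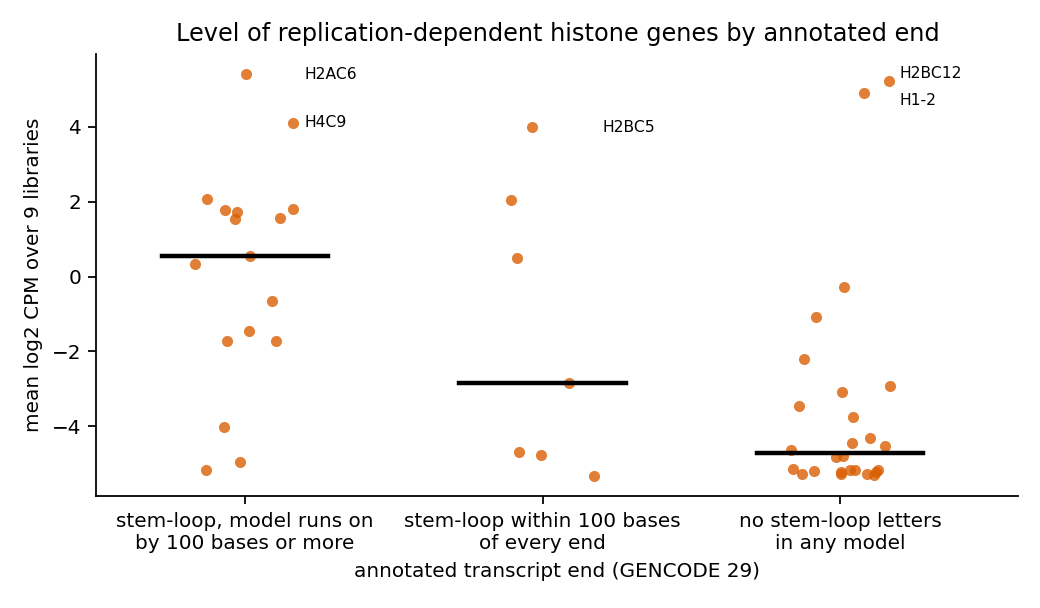
Mean log2 CPM over 9 libraries (vertical axis) of 50 replication-dependent histone genes by the end of their GENCODE 29 transcripts (horizontal axis). Each point is a gene and the bars are medians, at 0.54, -2.85 and -4.72 from left to right. Distances past the stem-loop were measured only in transcripts that hold it.

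The first comparison set TLX-overexpressing cells against control cells, both with the control siRNA. Most replication-dependent genes did not pass and those that did were higher, H2AC6, H2BC12 and H1-2 among them. The genes of H2A.Z rose, and H1-10 and H3-3B fell. Of 52 replication-dependent genes 11 rose (21.2%), 0 fell and 41 did not pass, at an adjusted p under 0.05 in limma. Over all rows 30.1% were called, 15.0% higher and 15.1% lower. Without library S6, 7 replication-dependent genes rose and 0 fell. Among the 12 that averaged at least 1, 6 rose (50.0%) and 0 fell, where 29.3% of all such rows were higher and 27.4% lower. At an unadjusted limma p under 0.05, 14 of the 52 were higher and 2, H4C14 and H2BC3, were lower. The authors' deposited table called H4C14 lower, with a false discovery rate of 0.045, and so did limma on the rows averaging at least 1 alone (-0.73, adjusted p = 0.0225). The median log2 fold change of the class was 0.25, against 0.00 over all rows. Of the 5 variants 2 rose, 2 fell and H3-3A did not pass, which is 80.0% called where 56.6% of rows averaging at least 1 were called. The groups did not overlap in 12 replication-dependent genes and 4 variants, where 41.4% of all rows and 71.6% of those averaging at least 1 did not overlap.

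Centring the libraries on the median of all rows shifts this comparison, because that median differed by -0.12 (log2) between TLX+siCTL and CTL+siCTL, and by 0.14 between TLX+siTLX and TLX+siCTL. With that centring 11 replication-dependent genes still rose and 0 fell. The variants then counted 3 higher and 1 lower, since H3-3B no longer passed (-0.05, adjusted p = 0.508 in limma) and H3-3A did (0.13, adjusted p = 0.0336). Over rows that average at least 1, the library medians differed by at most 0.03 in each comparison.

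The second comparison set TLX+siTLX against TLX+siCTL cells. Few histone genes were called: H2BC12, H4C9, H2BC4 and the variant H3-3A were higher and H2BC15 was lower. Of the 52 replication-dependent genes 3 rose and 1 fell (7.69% called), where 23.7% of all rows were called, 12.7% higher and 10.9% lower. Among the 12 averaging at least 1 the share called was 33.3%, against 45.8% of such rows. The class median was 0.10 as deposited and -0.04 with all-row medians centred, and with that centring only H2BC4 rose and H2BC15 fell. Of the 5 variants 1 rose as deposited (20.0%), where 23.8% of rows averaging at least 1 were higher, and with all-row medians centred 0 rose and 3 fell (H2AZ1, H2AZ2 and H3-3B). The groups did not overlap in 11 replication-dependent genes and 2 variants, where 33.9% of all rows and 58.3% of those averaging at least 1 did not overlap.

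The third comparison, TLX+siTLX against CTL+siCTL, uses libraries of both others and is not independent of them. It had the most calls: 17 replication-dependent genes rose (32.7%) and H2BC15 fell, where 34.6% of all rows were called, 17.7% higher and 17.0% lower. Among those averaging at least 1, 7 of 12 rose (58.3%) and 1 fell, where 32.4% of such rows were higher and 31.2% lower. The class median was 0.33. All 5 variants were called, 3 higher (H2AZ1, H2AZ2 and H3-3A) and 2 lower (H3-3B and H1-10), where 63.6% of rows averaging at least 1 were called. The groups did not overlap in 22 replication-dependent genes and 5 variants, where 42.2% of all rows and 71.1% of those averaging at least 1 did not overlap. Of the 40 replication-dependent genes with a mean under 1, 10 rose here, where 5.33% of all rows with a mean under 1 were higher. In TLX+siCTL against CTL+siCTL 5 of the 40 rose, where 3.10% of such rows were higher, and the difference between the comparisons was not tested. In limma, 0 of the 11 pseudogenes and 0 of the 3 testis or germ line genes were called in any of the 3 comparisons, and at an unadjusted p under 0.05 only H1-6 passed, lower in TLX+siCTL than in CTL+siCTL.

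**Figure D2:**
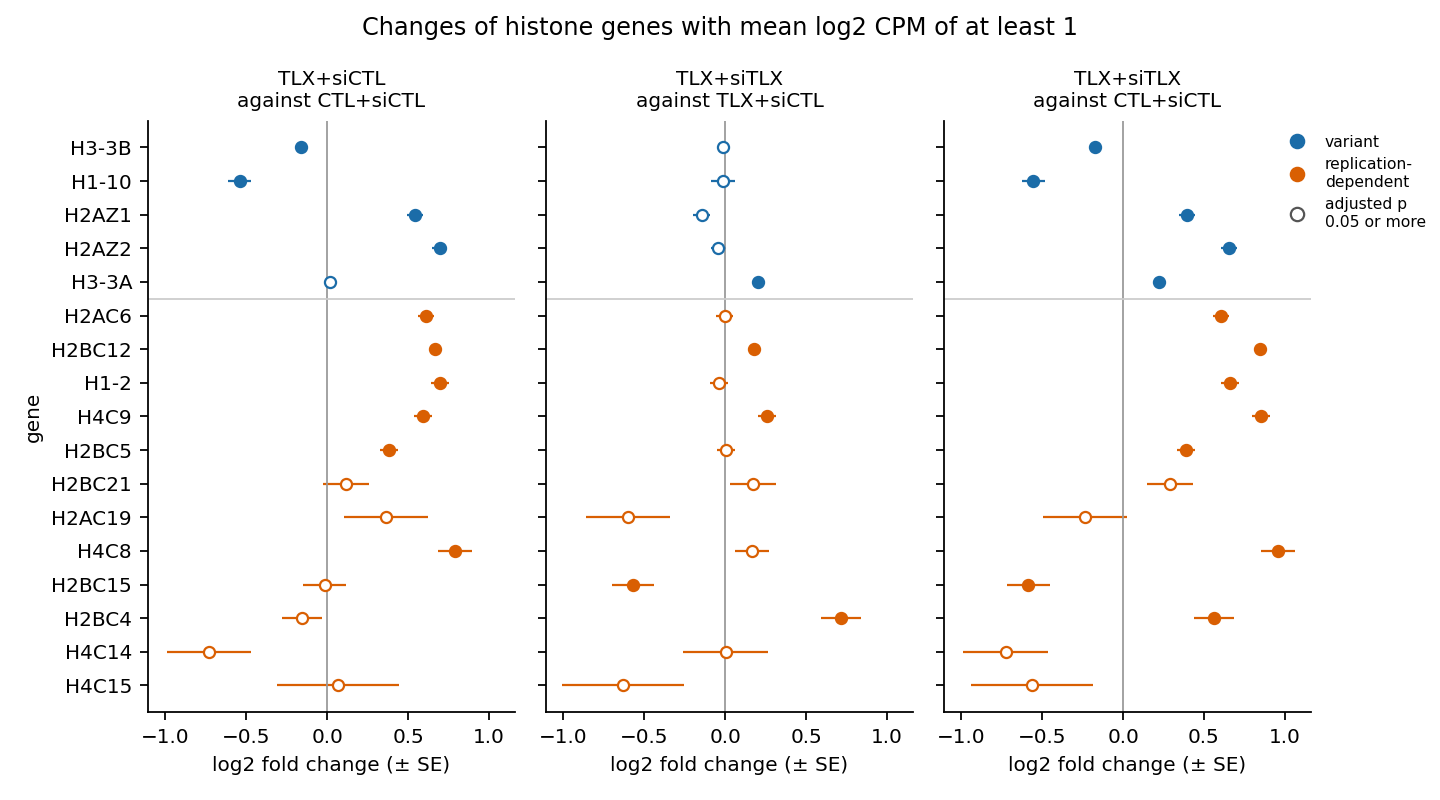
Log2 fold change ± SE in the 3 comparisons (horizontal axis, 1 panel each) of 5 variant and 12 replication-dependent histone genes that average at least 1 on the log2 CPM scale (vertical axis). Filled points have an adjusted limma p under 0.05. In TLX+siCTL against CTL+siCTL the filled replication-dependent points all lie right of 0, and the filled variants lie on both sides.

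H1-10 and H1-2, linker histone genes of different classes, moved in opposite directions. H1-10 (chr3:129314771-129316277, minus strand), a variant linker histone, had log2 CPM of 6.87, 6.95 and 7.18 in TLX+siTLX, 7.05, 6.98 and 7.01 in TLX+siCTL, and 7.57, 7.61 and 7.50 in CTL+siCTL. All 6 libraries of the TLX line lay below the control libraries, and S9 was the highest of its group. The log2 fold change of H1-10 was -0.54 ± 0.07 (SE) in TLX+siCTL against CTL+siCTL (adjusted p = 0.000488 in limma) and -0.55 ± 0.07 in TLX+siTLX against CTL+siCTL (adjusted p = 0.000324).

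H1-2 (chr6:26055787-26056428, minus strand), a replication-dependent linker histone, had 5.22, 5.01 and 5.12 in TLX+siTLX, 5.15, 5.11 and 5.19 in TLX+siCTL, and 4.46, 4.42 and 4.47 in CTL+siCTL. The 6 libraries of the TLX line were higher than the 3 control libraries and the TLX groups overlapped each other. Its log2 fold change was 0.70 ± 0.06 in TLX+siCTL against CTL+siCTL (adjusted p = 2.18e-05 in limma) and -0.04 in TLX+siTLX against TLX+siCTL (adjusted p = 0.715). H1-4, the next replication-dependent linker gene at a mean of -1.09, was not called in any comparison, and H1-1, H1-3 and H1-5 were under -5.

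In the H2A family both classes were higher in the TLX line. H2AZ1 (chr4:99948086-99950388, minus strand), the more studied of both H2A.Z genes, had 7.19, 7.15 and 7.33 in TLX+siTLX, 7.43, 7.34 and 7.33 in TLX+siCTL, and 6.81, 6.85 and 6.82 in CTL+siCTL. The control libraries were lowest, and the siRNA-treated libraries lay between the other groups, level with the lowest TLX+siCTL library at most. H2AZ1 rose by 0.54 ± 0.05 in TLX+siCTL against CTL+siCTL (adjusted p = 4.92e-05 in limma) and had a change of -0.15 ± 0.05 in TLX+siTLX against TLX+siCTL (adjusted p = 0.068). The second value passed in 3 of the other settings tried and without S9 (adjusted p = 0.0088). H2AZ2 (chr7:44826791-44848083, minus strand), which encodes the other H2A.Z protein, had 7.17, 7.25 and 7.35 in TLX+siTLX, 7.30, 7.34 and 7.26 in TLX+siCTL, and 6.65, 6.57 and 6.59 in CTL+siCTL. It was higher by 0.69 ± 0.05 in TLX+siCTL than in CTL+siCTL (adjusted p = 1.18e-05), and the TLX groups overlapped.

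H2AC6 (chr6:26124145-26139116, plus strand), the most abundant replication-dependent gene, encodes a core H2A. Its log2 CPM was 5.62, 5.63 and 5.56 in TLX+siTLX, 5.54, 5.63 and 5.65 in TLX+siCTL, and 5.03, 5.04 and 4.90 in CTL+siCTL. The TLX groups overlapped and both lay above the control libraries. H2AC6 rose by 0.61 ± 0.05 (log2) in TLX+siCTL against CTL+siCTL (adjusted p = 2.77e-05 in limma). H2AC11, another core H2A gene with a mean of 0.33, rose by 0.65 ± 0.20 (adjusted p = 0.04) in the same comparison. H2AC17, at a mean of -3.45, was called higher by 1.40 ± 0.46 (adjusted p = 0.0492), and lost that call in 3 other settings and when any library but S1 was left out (adjusted p up to 0.165). H2AC20 was called higher in TLX+siTLX against CTL+siCTL, at 1.97 ± 0.57 (adjusted p = 0.0249), a call lost with the 6 libraries of that comparison (adjusted p = 0.101) and without any 1 library except S1 (adjusted p up to 0.0946).

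**Figure D3:**
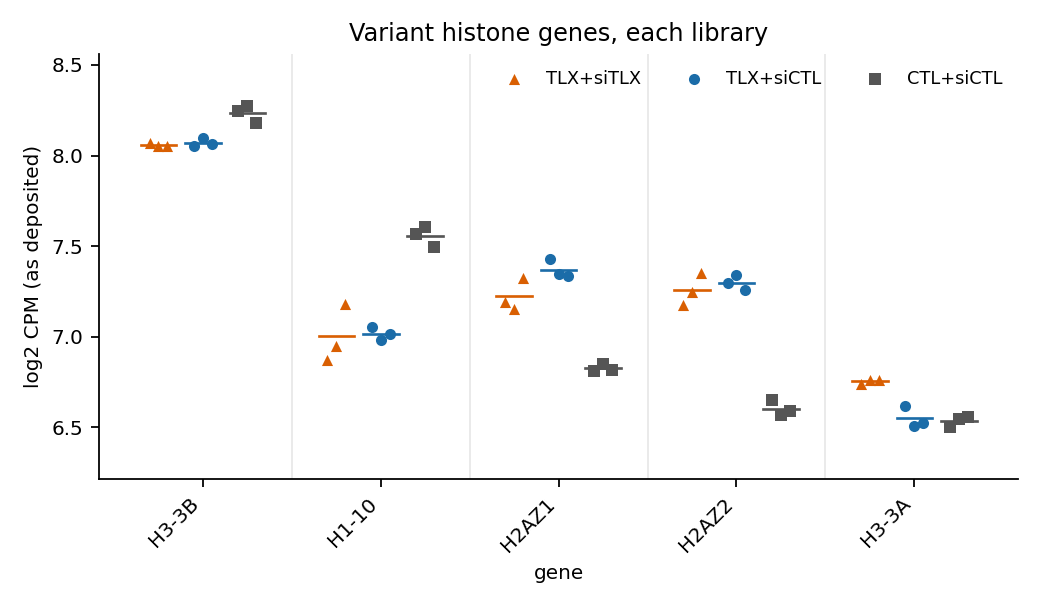
Log2 CPM as deposited (vertical axis) of 5 variant histone genes (horizontal axis) in each library, with group means as bars. The H1-10 points of the TLX line lie below the control squares, those of H2AZ1 and H2AZ2 above them, and H3-3A is highest in TLX+siTLX.

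The H2B genes gave 4 of the 11 rises in TLX+siCTL against CTL+siCTL and 3 of the 4 replication-dependent calls in TLX+siTLX against TLX+siCTL. H2BC12 (chr6:27146418-27146798, minus strand), the most abundant H2B gene, had 5.61, 5.56 and 5.53 in TLX+siTLX, 5.41, 5.34 and 5.42 in TLX+siCTL, and 4.72, 4.71 and 4.73 in CTL+siCTL. Its 3 groups stood fully apart, with the siRNA-treated libraries highest. Its change was 0.67 ± 0.04 in TLX+siCTL against CTL+siCTL (adjusted p = 4.04e-06 in limma) and 0.18 ± 0.04 in TLX+siTLX against TLX+siCTL (adjusted p = 0.00849). The second call was lost with all-row medians centred, at 0.04 (adjusted p = 0.638). H2BC5 had 4.17, 4.06 and 4.10 in TLX+siTLX, 4.15, 4.02 and 4.15 in TLX+siCTL, and 3.70, 3.69 and 3.79 in CTL+siCTL. It rose by 0.38 ± 0.06 in TLX+siCTL against CTL+siCTL (adjusted p = 0.000792), and differed by 0.01 in TLX+siTLX against TLX+siCTL (adjusted p = 0.995).

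H2BC4 and H2BC15 were called in TLX+siTLX against TLX+siCTL, in opposite directions, and did not pass in TLX+siCTL against CTL+siCTL. H2BC4 (chr6:26114873-26123926, minus strand) had 2.34, 2.14 and 1.96 in TLX+siTLX, 1.40, 1.34 and 1.56 in TLX+siCTL, and 1.48, 1.69 and 1.60 in CTL+siCTL. The siRNA-treated libraries were higher than all 6 others, which overlapped. H2BC4 changed by 0.72 ± 0.12 in TLX+siTLX against TLX+siCTL (adjusted p = 0.00306 in limma) and -0.16 ± 0.12 in TLX+siCTL against CTL+siCTL (adjusted p = 0.431). H2BC15 (chr6:27837760-27865798, plus strand) had 1.22, 1.42 and 1.57 in TLX+siTLX, 1.93, 1.80 and 2.18 in TLX+siCTL, and 2.00, 2.06 and 1.90 in CTL+siCTL. All siRNA-treated libraries were lower than the rest. H2BC15 changed by -0.57 ± 0.13 in TLX+siTLX against TLX+siCTL (adjusted p = 0.0132) and -0.02 in TLX+siCTL against CTL+siCTL (adjusted p = 0.987). With only the 6 libraries of TLX+siTLX and TLX+siCTL the adjusted p for H2BC15 was 0.0547. Its annotated span overlaps H2AC15 on the other strand, a gene with a mean of -5.22. The span also overlaps a protein-coding gene on the same strand and a processed pseudogene on the other, and neither was among the deposited rows.

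H2BC21, at a mean of 2.07, was not called, with log2 fold changes of 0.12, 0.17 and 0.29 in TLX+siCTL against CTL+siCTL, TLX+siTLX against TLX+siCTL and TLX+siTLX against CTL+siCTL. H2BC6, at 0.54, rose by 0.55 ± 0.15 in TLX+siCTL against CTL+siCTL (adjusted p = 0.0195 in limma). H2BC11 had 0.32, -0.08 and 0.57 in TLX+siTLX, -0.28, 0.19 and 0.26 in TLX+siCTL, and -1.81, -1.13 and -0.62 in CTL+siCTL, the last group spread widely. It rose by 1.24 ± 0.33 in TLX+siCTL against CTL+siCTL (adjusted p = 0.02), a call lost without S1, S2, S5 or S6 (adjusted p up to 0.0811) and with the 6 libraries alone (adjusted p = 0.0584). H2BC17 had the largest difference of any member called, with -1.88, -0.94 and -2.04 in TLX+siTLX, -3.87, -2.71 and -2.31 in TLX+siCTL, and -3.53, -4.72 and -4.26 in CTL+siCTL. Its log2 fold change was 2.55 ± 0.51 in TLX+siTLX against CTL+siCTL (adjusted p = 0.00401), 1.34 ± 0.51 in TLX+siTLX against TLX+siCTL (adjusted p = 0.1) and 1.21 in TLX+siCTL against CTL+siCTL (adjusted p = 0.121). At such levels a prior count, which the deposited values are assumed to hold, shrinks fold changes.

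**Figure D4:**
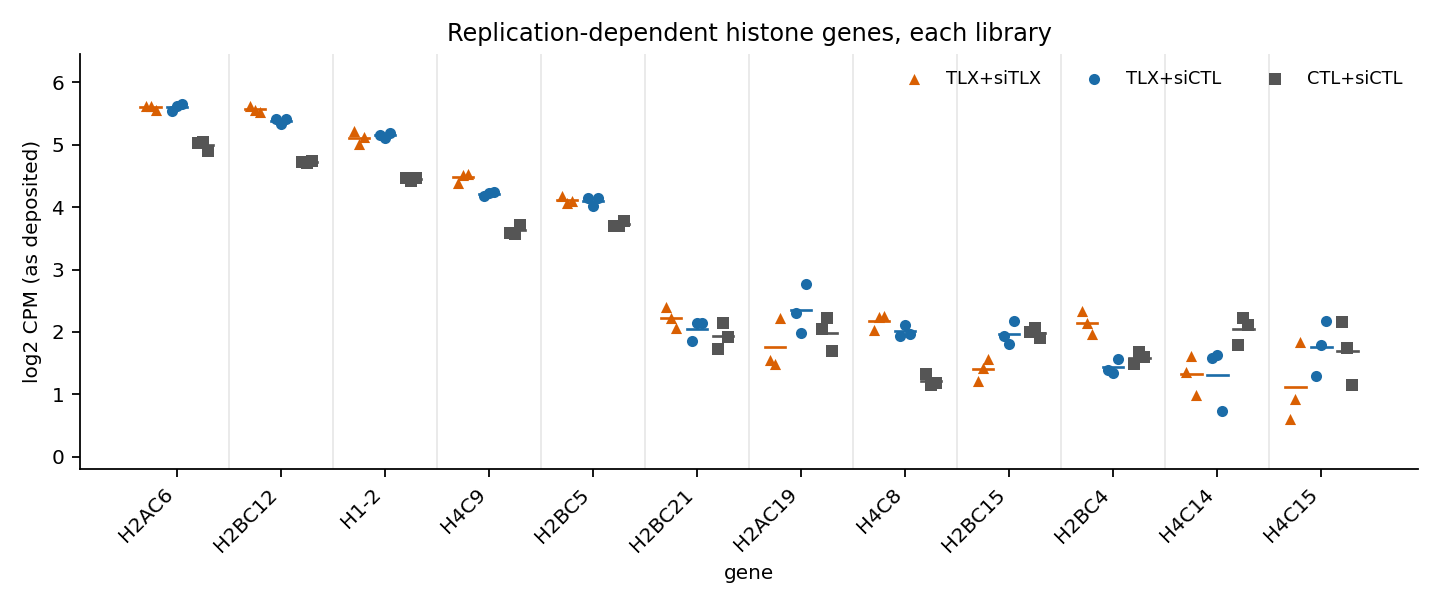
Log2 CPM as deposited (vertical axis) of the 12 replication-dependent histone genes with a mean of at least 1 (horizontal axis) in each library, with group means as bars. The 5 most abundant genes lie higher in both TLX groups than in CTL+siCTL, H2BC4 is high and H2BC15 low in TLX+siTLX, and H2AC19, H4C14 and H4C15 scatter within groups.

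H3 message as counted in these libraries came mostly from the variant genes. A poly(A) library holds few stem-loop messages, so the shares in the cells were not measured. H3-3B (chr17:75776434-75785893, minus strand) had 8.07, 8.05 and 8.05 in TLX+siTLX, 8.05, 8.10 and 8.06 in TLX+siCTL, and 8.24, 8.28 and 8.18 in CTL+siCTL. The TLX groups overlapped, and both lay below the controls by less than any other called variant. The log2 fold change was -0.16 ± 0.03 in TLX+siCTL against CTL+siCTL (adjusted p = 0.00666 in limma), the call that all-row centring removes. The span of H3-3B overlaps UNK on the other strand, at a mean of 4.80. H3-3A (chr1:226061851-226072001, plus strand), which encodes the same protein, had 6.74, 6.76 and 6.76 in TLX+siTLX, 6.62, 6.51 and 6.53 in TLX+siCTL, and 6.50, 6.55 and 6.56 in CTL+siCTL. The siRNA-treated libraries were highest and the other groups overlapped. It was higher by 0.20 ± 0.04 in TLX+siTLX than in TLX+siCTL (adjusted p = 0.00432), and by 0.06 with all-row medians centred (adjusted p = 0.305). Replication-dependent H3 genes were scarce, and the highest of the 11, H3C10, averaged -1.47. H3C10 had -1.26, -0.56 and -0.68 in TLX+siTLX, -1.22, -1.49 and -1.14 in TLX+siCTL, and -2.25, -2.46 and -2.13 in CTL+siCTL, with the control libraries lowest. It rose by 0.99 ± 0.27 in TLX+siCTL against CTL+siCTL (adjusted p = 0.0225), and the call was lost without S2, S4 or S6 (adjusted p up to 0.0597).

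H4 has no variant gene among the members. H4C9 (chr6:27138588-27139881, plus strand), the most abundant H4 gene, had 4.39, 4.52 and 4.53 in TLX+siTLX, 4.18, 4.23 and 4.24 in TLX+siCTL, and 3.59, 3.58 and 3.71 in CTL+siCTL. Its 3 groups stood apart in the order of H2BC12. Its log2 fold change was 0.59 ± 0.06 in TLX+siCTL against CTL+siCTL (adjusted p = 6.89e-05 in limma) and 0.26 ± 0.06 in TLX+siTLX against TLX+siCTL (adjusted p = 0.0104), the second becoming 0.12 (adjusted p = 0.165) with all-row medians centred. H4C8 (chr6:26277609-26285638, minus strand) had 2.03, 2.24 and 2.25 in TLX+siTLX, 1.94, 2.11 and 1.97 in TLX+siCTL, and 1.32, 1.14 and 1.19 in CTL+siCTL. Both TLX groups were higher than the controls and overlapped each other. It rose by 0.79 ± 0.10 in TLX+siCTL against CTL+siCTL (adjusted p = 0.000429), the largest rise among members averaging at least 1 in that comparison.

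Near-identical copies made up 3 pairs of members, and the counting can split their reads in any proportion. H3C14 and H3C15 share all 1656 bases of their longest transcripts and had the same value in every library. H4C14 and H4C15 share a run of 1547 bases, and H2AC18 and H2AC19 share 549. H2AC18 had 2.12, 2.34 and 1.87 in TLX+siTLX, 0.85, 1.85 and -5.33 in TLX+siCTL, and 0.00, -0.55 and 1.30 in CTL+siCTL, so that S6 stood at the lowest value of the table. H2AC19 in S6 was the highest of the 9 libraries, at 2.77. Summed as linear CPM, H2AC18 and H2AC19 gave 7.23, 7.81 and 8.26 CPM in TLX+siTLX, 6.68, 7.49 and 6.82 in TLX+siCTL, and 5.08, 5.32 and 5.64 in CTL+siCTL, with the controls lowest and the TLX groups overlapping. The summed pair was higher by 0.38 ± 0.08 (log2) in TLX+siCTL than in CTL+siCTL (adjusted p = 0.00577 in limma), where neither copy alone was called. H4C14 and H4C15 together gave 4.03, 4.91 and 5.52 CPM in TLX+siTLX, 5.39, 6.49 and 6.15 in TLX+siCTL, and 7.90, 7.99 and 6.51 in CTL+siCTL. This pair had a log2 fold change of -0.63 ± 0.14 in TLX+siTLX against CTL+siCTL (adjusted p = 0.00578), and its other comparisons did not pass (adjusted p = 0.133 and 0.136). The sums were formed after the copies' values had been seen.

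Summed over the class, the replication-dependent messages counted in these libraries were more abundant in the TLX line. A change in total message and one in the share with a poly(A) tail cannot be told apart here. The 52 replication-dependent genes summed to 210.4, 205.3 and 205.8 CPM in TLX+siTLX, 192.7, 194.8 and 202.4 in TLX+siCTL, and 136.8, 137.1 and 135.2 in CTL+siCTL. The groups did not overlap. The ratio of group means was 1.44 for TLX+siCTL against CTL+siCTL and 1.52 for TLX+siTLX against CTL+siCTL. For TLX+siTLX against TLX+siCTL it was 1.05 as deposited and 0.955 with all-row medians centred. Without H2AC6 the first ratio was 1.42.

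By histone type, the ratio for TLX+siCTL against CTL+siCTL was 1.60 for replication-dependent H1, 1.50 for replication-dependent H2A and 1.53 for variant H2A. It was 1.40 for H2B, 1.29 for H4 and 0.921 for variant H3. The replication-dependent sums rest on few genes. H2AC6, H2BC12, H1-2, H4C9 and H2BC5 averaged 43.0, 38.5, 30.7, 17.7 and 15.9 CPM over the libraries, and the next gene, H2AC19, 4.21. The H1 sum is mostly H1-2, and H1-4 had a log2 fold change of -0.42 in that comparison, without a call. Replication-dependent H3 summed to 1.26 ± 0.0861 CPM in TLX+siTLX, 1.24 ± 0.130 in TLX+siCTL and 1.00 ± 0.240 in CTL+siCTL (mean ± SD, n = 3 each). The TLX+siCTL libraries overlapped both other groups, and the lowest TLX+siTLX library, at 1.21, lay next to the highest control library, also at 1.21. Between TLX+siTLX and TLX+siCTL the H2B sums did not overlap, at 80.4 ± 2.71 CPM in TLX+siTLX and 73.3 ± 3.00 in TLX+siCTL (SD, n = 3 each), a ratio of 1.10. The H4 sums had a ratio of 1.11 and overlapped.

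**Figure D5:**
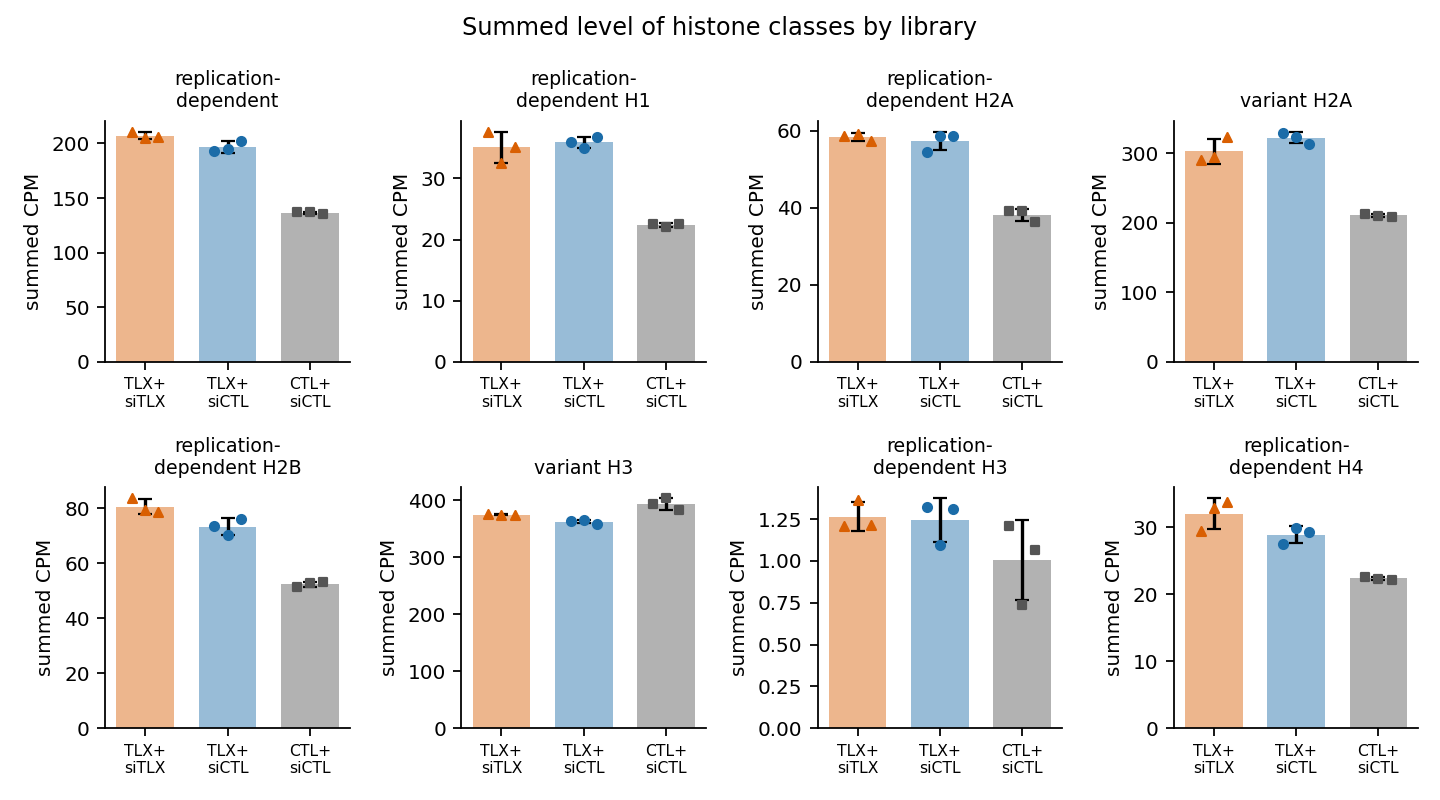
Summed CPM (vertical axes, starting at 0) of all replication-dependent histone genes and of each histone type by class except variant H1, in TLX+siTLX, TLX+siCTL and CTL+siCTL. Points are libraries, bars are means and whiskers are SD (n = 3). Replication-dependent sums and variant H2A are higher in both TLX groups, except replication-dependent H3 in TLX+siCTL, which overlaps the controls, and variant H3 is lower in both TLX groups.

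H2BC4 and H2AC6 start 219 bases apart on chromosome 6 and run away from each other, so they share promoter sequence, as H2A and H2B pairs in the clusters often do. The log2 CPM of H2AC6 minus that of H2BC4 was 3.28, 3.48 and 3.60 in TLX+siTLX, 4.14, 4.29 and 4.08 in TLX+siCTL, and 3.55, 3.36 and 3.30 in CTL+siCTL. The TLX+siCTL libraries stood above both other groups, which overlapped. The difference of means was 0.77 for TLX+siCTL against CTL+siCTL and -0.72 for TLX+siTLX against TLX+siCTL, each with a two-sided exact permutation p = 0.1, the smallest that 3 against 3 can give. For TLX+siTLX against CTL+siCTL it was 0.05 (exact permutation p = 0.8). For H2BC11 and H2AC11, 292 bases apart, the 3 groups overlapped in every comparison.

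The shared stretch is shown with the promoter of H2BC12, which had all 4 motifs searched, on its own strand and 5′ to 3′, from RefSeq on GRCh38.p14. Capitals mark the octamer ATTTGCAT that POU2F1 binds, the CCAAT box, the TATA box TATAAA and the E2F letters TTTCGCGC, each on either strand.
H2AC6: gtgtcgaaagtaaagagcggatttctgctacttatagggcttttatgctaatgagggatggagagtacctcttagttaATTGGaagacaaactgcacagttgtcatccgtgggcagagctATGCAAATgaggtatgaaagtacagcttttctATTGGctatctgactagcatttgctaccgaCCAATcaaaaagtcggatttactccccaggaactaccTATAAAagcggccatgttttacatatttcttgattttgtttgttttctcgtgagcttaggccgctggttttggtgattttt
H2BC12: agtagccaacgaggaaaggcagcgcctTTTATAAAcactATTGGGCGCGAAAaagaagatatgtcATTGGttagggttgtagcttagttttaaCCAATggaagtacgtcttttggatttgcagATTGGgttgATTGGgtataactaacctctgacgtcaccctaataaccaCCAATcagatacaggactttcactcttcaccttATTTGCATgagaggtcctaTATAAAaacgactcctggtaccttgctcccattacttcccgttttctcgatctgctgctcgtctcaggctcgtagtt
The stretches are chr6:26123922-26124221 (plus strand) and chr6:27146809-27147108 (minus strand). In the H2BC12 promoter a reversed CCAAT box and the reversed E2F letters stand directly side by side. Of 35116 promoters of this length, 1.77% held the octamer, 34.6% CCAAT, 11.5% TATAAA and 0.515% the E2F letters. Of the 47 replication-dependent genes with a promoter in that table, 38.3% held the octamer, 85.1% CCAAT, 74.5% TATAAA and 21.3% the E2F letters. In TLX+siCTL against CTL+siCTL, 6 of the 18 genes with the octamer rose, with a median log2 fold change of 0.46, and 5 of the 29 without it did, with a median of 0.20. For the E2F letters 4 of 10 genes with them rose (median 0.66) and 7 of 37 without them (median 0.13). These are counts of letters in a window and no difference between them was tested.

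Genes that serve histones were set beside the members. Of 28 genes for histone gene transcription and message processing, 12 rose and 3 fell in TLX+siCTL against CTL+siCTL, with a median log2 fold change of 0.17. All 28 averaged at least 1, and their share called, 53.6%, lay near the 56.6% of all such rows. In TLX+siTLX against TLX+siCTL 4 rose and 6 fell (35.7%, against 45.8% of such rows), with a median of -0.03. CSTF2, a cleavage factor subunit, rose by 0.76 ± 0.07 and LSM10, part of the histone-processing snRNP, by 0.56 ± 0.07 in TLX+siCTL against CTL+siCTL, while LSM10 changed by -0.33 ± 0.07 in TLX+siTLX against TLX+siCTL. MIF4GD, a partner of SLBP in translation, fell in TLX+siCTL against CTL+siCTL (-0.71 ± 0.09). SLBP itself differed by 0.08 in TLX+siCTL against CTL+siCTL (adjusted p = 0.453 in limma) and by 0.22 ± 0.07 in TLX+siTLX against TLX+siCTL (adjusted p = 0.0484). NPAT, the coactivator of histone gene transcription, rose by 0.31 ± 0.06 in TLX+siCTL (adjusted p = 0.00449), with -0.19 in TLX+siTLX against TLX+siCTL (adjusted p = 0.0653). HINFP, an activator of H4 genes, fell in TLX+siTLX against TLX+siCTL (-0.51 ± 0.05, adjusted p = 0.000167).

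Of 37 histone chaperones and exchange factors, 23 rose and 4 fell in TLX+siCTL against CTL+siCTL (median 0.34), and 16 rose and 9 fell in TLX+siTLX against TLX+siCTL (median 0.15). The shares were 62.2% higher and 10.8% lower in the first comparison, where 29.3% of rows averaging at least 1 were higher and 27.4% lower. In the second they were 43.2% higher and 24.3% lower, where 23.8% and 22.0% of such rows were. Of the 37 genes, 36 averaged at least 1. ASF1B, which hands new H3 and H4 to the replication fork, was higher by 1.83 ± 0.08 in TLX+siCTL than in CTL+siCTL and by 1.38 ± 0.08 in TLX+siTLX than in TLX+siCTL. CHAF1A, the large subunit of the chromatin assembly factor, was higher by 1.24 ± 0.15 and 0.81 ± 0.15 in the same comparisons. The chaperone of centromeric H3, HJURP, was higher by 0.55 ± 0.14 and 2.22 ± 0.14. Its client CENPA had log2 CPM of 3.34, 3.01 and 3.49 in TLX+siTLX, 2.23, 2.21 and 2.33 in TLX+siCTL, and 1.29, 1.24 and 1.25 in CTL+siCTL, and the 3 groups stood apart. CENPA was higher by 1.00 ± 0.12 in TLX+siCTL than in CTL+siCTL (adjusted p = 0.000224 in limma) and by 1.02 ± 0.12 in TLX+siTLX than in TLX+siCTL (adjusted p = 0.000358). SRCAP, the remodeller that deposits H2A.Z, fell in both comparisons (-0.43 ± 0.08 and -0.81 ± 0.08). EP400, which also exchanges H2A.Z, fell in TLX+siCTL against CTL+siCTL (-0.48 ± 0.06) and was at 0.00 in TLX+siTLX against TLX+siCTL (adjusted p = 1).

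Of 18 further histone genes that the rule did not match, 11 were in the table. H2AX, the H2A variant phosphorylated at DNA breaks, had 6.45, 6.66 and 6.78 in TLX+siTLX, 6.08, 6.13 and 6.12 in TLX+siCTL, and 5.61, 5.63 and 5.62 in CTL+siCTL, with the groups apart. It was higher by 0.49 ± 0.07 and by 0.52 ± 0.07 in the first and the second comparison. MACROH2A1, a large H2A variant of silent chromatin, was higher by 0.41 ± 0.03 in TLX+siCTL than in CTL+siCTL, and H2AJ, an H2A variant linked to senescence, was lower (-0.70 ± 0.07). H2BE1, an H2B gene called in both comparisons, averaged -4.98 and stood at the lowest value of the table in every TLX+siTLX and in 2 of 3 CTL+siCTL libraries, so its calls rest on few reads. In this list 4 rose and 1 fell in the first comparison and 2 rose and 1 fell in the second. These are 45.5% and 27.3% of the 11 genes, where 30.1% and 23.7% of all rows were called.

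Genes of S phase rose in both the first and the second comparison. Of 32 such genes, 30 rose and 0 fell in TLX+siCTL against CTL+siCTL, with a median log2 fold change of 0.96, and 30 rose and 0 fell in TLX+siTLX against TLX+siCTL, with a median of 0.77. That is 93.8% of the list each time, where 29.3% of rows averaging at least 1 were higher in the first comparison and 23.8% in the second. RRM2, a subunit of ribonucleotide reductase, was higher by 1.72 ± 0.11 and 1.50 ± 0.11, and TK1, thymidine kinase, by 0.96 ± 0.09 and 1.51 ± 0.09. GINS2, of the replicative helicase, was higher by 2.24 and UHRF1, which helps copy DNA methylation, by 1.81 in TLX+siCTL than in CTL+siCTL. Over the same comparisons the median replication-dependent histone gene averaging at least 1 was at 0.37 and 0.01. The first and second comparison share the TLX+siCTL libraries, and the part of S phase in the histone values was not tested.

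In the authors' deposited table, 16 of the 71 members had a false discovery rate under 0.05 in TLX+siCTL against CTL+siCTL, 5 in TLX+siTLX against TLX+siCTL and 23 in TLX+siTLX against CTL+siCTL. Both that table and limma called 15, 5 and 22 of these members in the same comparisons, out of 15, 5 and 23 called in limma. As shares of the 71 members the authors' calls were 22.5%, 7.04% and 32.4%, where 30.1%, 25.1% and 34.2% of all rows in their table were called. It rests on the same libraries.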

How the data were processed

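The submitters' processing notes name kallisto 0.44.0, edgeR, limma and GRCh38 without saying what each did. The authors deposited log2 CPM values of 27548 Ensembl genes in 9 libraries. The lowest value, -5.33, was the same in all 9. It was taken as 0 reads with a prior count of 2 added, which is an assumption made here. A prior count shrinks the fold changes of genes with few reads. A second deposited table holds the authors' signed fold change, a score in which a fall is minus the inverse ratio, with its p-value and FDR. The test behind them is unknown, and it is also unknown whether reads were counted by strand.

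Members and gene lists were chosen with earlier results of these data known. Of the matched genes, 1 is not reported here and is left out of every count and sum. Columns were matched to groups by name, and 0 columns were left unmapped. The deposited log2 values were fitted with limma 3.58.1 under R 4.3.3 (9 libraries in 1 fit, a mean per group, intensity trend, two-sided, Benjamini-Hochberg over 27548 rows, threshold 0.05), giving log2 fold changes with standard errors (SE) for each comparison. Class totals are sums of linear CPM with the assumed prior count subtracted. Genes were named by a rule: the variant genes and the 12 most abundant replication-dependent genes averaging at least 1, the 3 largest rises and falls called per class and comparison, and from the other lists genes among the 3 largest called rises and falls, with SLBP, NPAT, CENPA and NR2E1 in any case. Other members given with values, such as H2BC6, H2AC11, H2AC18 and H1-4, were chosen after their values were seen. Transcripts came from GENCODE 29 and promoters from RefSeq, which held 55 of the members. In a test on simulated data, drawn for the comparison TLX+siCTL against CTL+siCTL, 200 of 27548 rows were changed, all of them averaging at least 1. There limma recovered 16% of 1.2-fold, 76% of 1.5-fold, 96% of 2-fold and 98% of 4-fold changes, and 4.03% of its calls were false. These rates do not cover the 40 replication-dependent genes averaging under 1. The data gave 8304 calls in that comparison, so the cut-off on the p-value also differed from that of the simulation.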

Additional observations from a re-analysis of the deposited data

How the results depend on the processing

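Of 1107 values of the named histone genes under other settings, 1060 kept their side of the threshold, 33 lost a call and 14 gained one. Of the values called in the main fit or under the other setting, 0 turned round. Values called in neither could change sign, as H4C15 did in TLX+siCTL against CTL+siCTL (-0.20 to 0.30 with libraries left out in turn). With tests limited to rows averaging at least 1, 7 replication-dependent genes were called in TLX+siCTL against CTL+siCTL (6 higher, and H4C14 as the 1 lower) in place of 11, and 9 in TLX+siTLX against CTL+siCTL in place of 18, because only 12 of the 52 genes are then tested. In TLX+siTLX against TLX+siCTL, centring on all-row medians left 2 replication-dependent calls in place of 4 and gave 3 variant calls, all lower, in place of 1. Centring on rows averaging at least 1, or testing those rows only, gave 2 variant calls there. Leaving out each library in turn gave 7 to 12 replication-dependent calls in TLX+siCTL against CTL+siCTL, the 7 without S6, and 1 to 2 variant calls in TLX+siTLX against TLX+siCTL, the 2 without S9. With all-row medians centred, a scaling of the sums that was chosen after seeing the data, the ratio of replication-dependent sums was 1.56 in TLX+siCTL against CTL+siCTL, 0.955 in TLX+siTLX against TLX+siCTL and 1.49 in TLX+siTLX against CTL+siCTL. The cause of the shifts under this centring was not tested. No paired analysis was possible because the table's columns carry a running number that no sample's labels hold. Genes with few reads, and near-identical copies whose reads the counting can split, are the least certain, and 3 libraries a group limit the precision of each value.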
